A study of Mus musculus with 68 samples.

Results

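Thioredoxin and glutaredoxin are small proteins that reduce disulfide bonds in other proteins, the first with electrons from NADPH through thioredoxin reductase, the second with electrons from glutathione. Glutathione peroxidases and peroxiredoxins use the same supplies to remove hydrogen peroxide and lipid peroxides. Txnip, an arrestin-domain protein that binds reduced thioredoxin and lowers glucose uptake, stands between this system and sugar metabolism, and in brain most cell types express parts of the system.

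The genes described are 9 of the 18088 in the deposited table: Txnip and its paralogue Arrdc4, the cytosolic thioredoxin Txn1 and its reductase Txnrd1, the glutaredoxin Glrx, the glutathione peroxidases Gpx1, Gpx3 and Gpx4, and the peroxiredoxin Prdx6. They were chosen by symbol, because Txnip was lower and Glrx higher under lithium and Gpx3 differed between genotypes in these same libraries. Levels in those contrasts are therefore given as descriptions with no test. All 9 had a mean of at least 5, the minimum for testing, as had 17922 genes in all.

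The 68 libraries are each from 1 sample of prefrontal cortex, taken at postnatal day 25 from C57BL/6J mice. Mice labelled HT were heterozygous for Adnp, which encodes a chromatin-binding homeobox protein. Mice labelled WT were wild type. Pups received lithium (9 HT and 8 WT libraries), fluoxetine (10 HT and 10 WT) or vehicle (16 HT and 15 WT) from day 3 to day 24, 3 weeks, through the milk of their mothers, so the dose that reached a pup is not known. Lithium inhibits glycogen synthase kinase and inositol monophosphatases, and fluoxetine blocks serotonin reuptake. Both sexes were present in each condition, with 3 to 8 libraries in each of 12 groups. The labels do not say whether littermates were used, so p-values measure the spread between these samples. Whole tissue was sequenced, so fewer cells of a type cannot be told from less RNA in each cell.

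Libraries held 22.4 to 37.5 M recovered reads (median 30.7 M). Adnp itself was not lower in libraries labelled HT: under vehicle its normalized count was 1730.2 to 2845 (median 2334) in HT and 1077 to 2290.2 (median 1978) in WT, a log2 difference of 0.32 (SE 0.07, limma adjusted p = 0.0021). The labels do not say which part of the gene is altered, so a count over the whole gene does not check them. Excitatory neuron markers of cortex were abundant in every library (10 genes summing to 139181 to 234205). Choroid plexus markers, 8 of 10 listed with a row, summed to 104 to 6109.6. The highest sum was in a WT lithium library, where Ttr reached 5536 (mean of all libraries 159), and Folr1 and Otx2 had means of 6.67 and 7.19.

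The libraries fell into 3 sets by the levels of 361 pseudogenes, a division that the labels do not name. Fluoxetine libraries were in set 1, 10 of each genotype, beside 8 from HT mice on vehicle. Lithium libraries were in set 2, 9 HT and 8 WT, beside 6 HT and 5 WT on vehicle. The other 12 libraries, 2 HT and 10 WT on vehicle, formed set 3. Most lithium and fluoxetine libraries are thus set against vehicle libraries of another set when all are pooled, so values within a set are given beside the pooled ones. Some of the 9 genes differed between sets under vehicle alone. Gpx1 was lower in set 3 than in set 2 by a log2 difference of -0.40 (SE 0.06, limma adjusted p = 4e-06) in WT males, -0.17 (SE 0.05, adjusted p = 0.017) in WT females and -0.31 (SE 0.07, adjusted p = 0.0013) in HT males. In WT males Gpx4 (-0.25, adjusted p = 0.032) and Prdx6 (-0.26, adjusted p = 0.012) were lower in set 3 too, while Arrdc4 was higher there in WT females (0.30, adjusted p = 0.0039). Txnip was lower in set 1 than in set 2 in HT females (-0.20, SE 0.09) and HT males (-0.25, SE 0.11). In set 3 it was lower than in set 2 in HT males (-0.32, SE 0.12), WT females (-0.18, SE 0.09) and WT males (-0.18, SE 0.11). None of these Txnip differences passed in limma.

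Levels are normalized counts, and only the comparison between genes is made per kilobase of annotated exon. Gpx4, the peroxidase that reduces lipid peroxides in membranes, was highest at 3288 per kilobase over all libraries. Txn1 followed at 1418, Gpx1, the main cytosolic peroxidase, at 1244 and Prdx6, a peroxiredoxin that also acts on phospholipids, at 823. Txnrd1 was at 219.6, Txnip at 198, the secreted peroxidase Gpx3 at 172, Glrx at 159 and Arrdc4 at 59.0. Gpx4, Txn1 and Prdx6 have same-named copies in the annotation (Gpx4-ps2, Txn-ps1, Prdx6b and Prdx6-ps2) that have no row in the table, so their levels could include reads from these and are uncertain to that extent.

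Txnip and Arrdc4 are known targets of the glucose-sensing factors MondoA and ChREBP, which bind paired E-box-like motifs. Their RefSeq promoters are shown because the levels of these paralogues did not differ alike under lithium. Each is the 250 bases before the RefSeq start on build GRCm38.p6, and capitals mark the E-box-like pair (CACGNG, then 5 bases of any kind, then CACGNG), the E-box CACGTG and the CCAAT box, which reads ATTGG on the other strand.
Txnip, chr3:96557707-96557956, plus strand: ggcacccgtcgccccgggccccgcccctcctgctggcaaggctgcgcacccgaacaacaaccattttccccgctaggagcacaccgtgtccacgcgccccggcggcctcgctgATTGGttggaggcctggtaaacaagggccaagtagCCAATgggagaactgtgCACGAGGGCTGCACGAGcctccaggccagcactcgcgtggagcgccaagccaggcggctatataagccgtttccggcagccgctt
Arrdc4, chr7:68749239-68749488, minus strand: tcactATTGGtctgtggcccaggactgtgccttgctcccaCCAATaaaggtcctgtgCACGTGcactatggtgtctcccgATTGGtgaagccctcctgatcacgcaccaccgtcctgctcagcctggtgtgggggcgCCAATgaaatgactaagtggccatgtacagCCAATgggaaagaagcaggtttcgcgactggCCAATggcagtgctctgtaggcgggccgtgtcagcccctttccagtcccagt
The pair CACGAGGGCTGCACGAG lay at -85 to -69 from the Txnip start, counted from -1 for the base before it. Of 32851 such mouse windows, 15 (0.0457%) held the pair on either strand. The Arrdc4 window held no pair but an E-box at -193 to -188, a motif in 6.02% of windows, and CCAAT boxes, present in 33.8% of windows. The E-box can form part of a pair, and both strands were searched for each motif. The windows of 8 of the 9 genes were in the reference table.

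Txnip (chromosome 3, 96557957 to 96561883, GRCm38, plus strand) was lower under lithium in HT cortex. Its normalized count ranged over 449.8 to 590.6 (median 543) in the 9 HT lithium libraries and over 523 to 804 (median 651) in the 16 HT vehicle libraries. The means were 536 ± 41.0 and 659.6 ± 75 (SD), and the log2 difference, lithium minus vehicle, was -0.29 (SE 0.06). Within set 2 the ranges did not overlap: all 9 lithium libraries lay at or below 590.6, and the 6 vehicle libraries had 655, 689.5, 737, 739, 741 and 804. The difference there was -0.44 (SE 0.07) and the vehicle libraries of set 2 averaged 728, above the 659.6 of all HT vehicle libraries. Over all sets the lithium difference was -0.35 (SE 0.09) in females and -0.23 (SE 0.08) in males.

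In WT the Txnip difference was smaller. WT lithium libraries had 523 to 704 (median 604) and WT vehicle libraries 553 to 797 (median 617), a log2 difference of -0.02 (SE 0.07). Within set 2 it was -0.14 (SE 0.08), and the 5 WT vehicle libraries there had 572, 627, 651, 792 and 797. The groups overlapped, with 7 of the 8 lithium libraries inside the vehicle range. The lithium difference in HT minus that in WT was -0.27 (SE 0.09) pooled and -0.30 (SE 0.10) within set 2. No p is given, because Txnip was chosen on its lithium difference. Among the 6 conditions the only step between neighbouring Txnip means beyond the larger SD was that from HT lithium (536) to WT fluoxetine (601). The antisense gene Gm15441 shares 606 exonic bases with Txnip. It has no row in the table, and whether counting used the strand of a read is not given in the sources used here, so its reads may be included.

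Of the 10 markers of meningeal fibroblasts, all measured, 0 passed under lithium in HT, against 1.52% of all genes, with a median log2 difference of -0.23. In WT 8 of 10 passed and were lower, against 17.5% of all genes lower, with a median of -0.32. Within set 2 the medians were -0.16 in HT and -0.17 in WT, and 0 of 10 passed in either, against 0.162% and 0.664% of all genes. There the 10 genes summed to 5499.5 to 7467 in HT lithium libraries and 6548 to 7544 in HT vehicle libraries, with Igf2, Col1a2 and Col1a1 the most abundant and none near 0. Over the 68 libraries, after the mean of each group in each set was removed, Txnip and the marker level had a Pearson's r of 0.58. With other lists r was 0.45 for astrocytes, 0.39 for endothelial cells, 0.37 for microglia and 0.37 for mural cells. For the rest it lay between -0.13 and 0.15. Within set 2 under lithium, median differences were -0.17 in HT and -0.12 in WT for mural markers, and -0.13 and -0.02 for endothelial markers. Those of astrocytes were -0.05 and 0.03, and those of microglia -0.06 and 0.05. The libraries share tissue and dissection, and the part of any of these cells in the Txnip difference was not tested. By the same measure the genes most like Txnip among 12840 candidates included Mrc1 (r = 0.68), a receptor of perivascular and meningeal macrophages, Slc13a4 (0.64), a sulfate transporter, F3 (0.64), tissue factor, and Fmod (0.62), a matrix proteoglycan.

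Arrdc4 (chromosome 7, 68736995 to 68749241, minus strand), like Txnip an alpha-arrestin of glucose control, was not lower under lithium. It had 219.7 to 270.1 (median 235) in HT lithium libraries and 198 to 261 (median 226) in HT vehicle libraries, a log2 difference of 0.09 (SE 0.05). In WT it had 206 to 270.4 (median 259.9) under lithium and 199 to 299 (median 242) under vehicle, a difference of 0.10 (SE 0.06). Within set 2 the differences were 0.03 (SE 0.06) in HT and 0.13 (SE 0.06) in WT. The groups overlapped in each case. Txnip and Arrdc4 also did not vary together between libraries of the same group and set (r = -0.14).

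**Figure D1:**
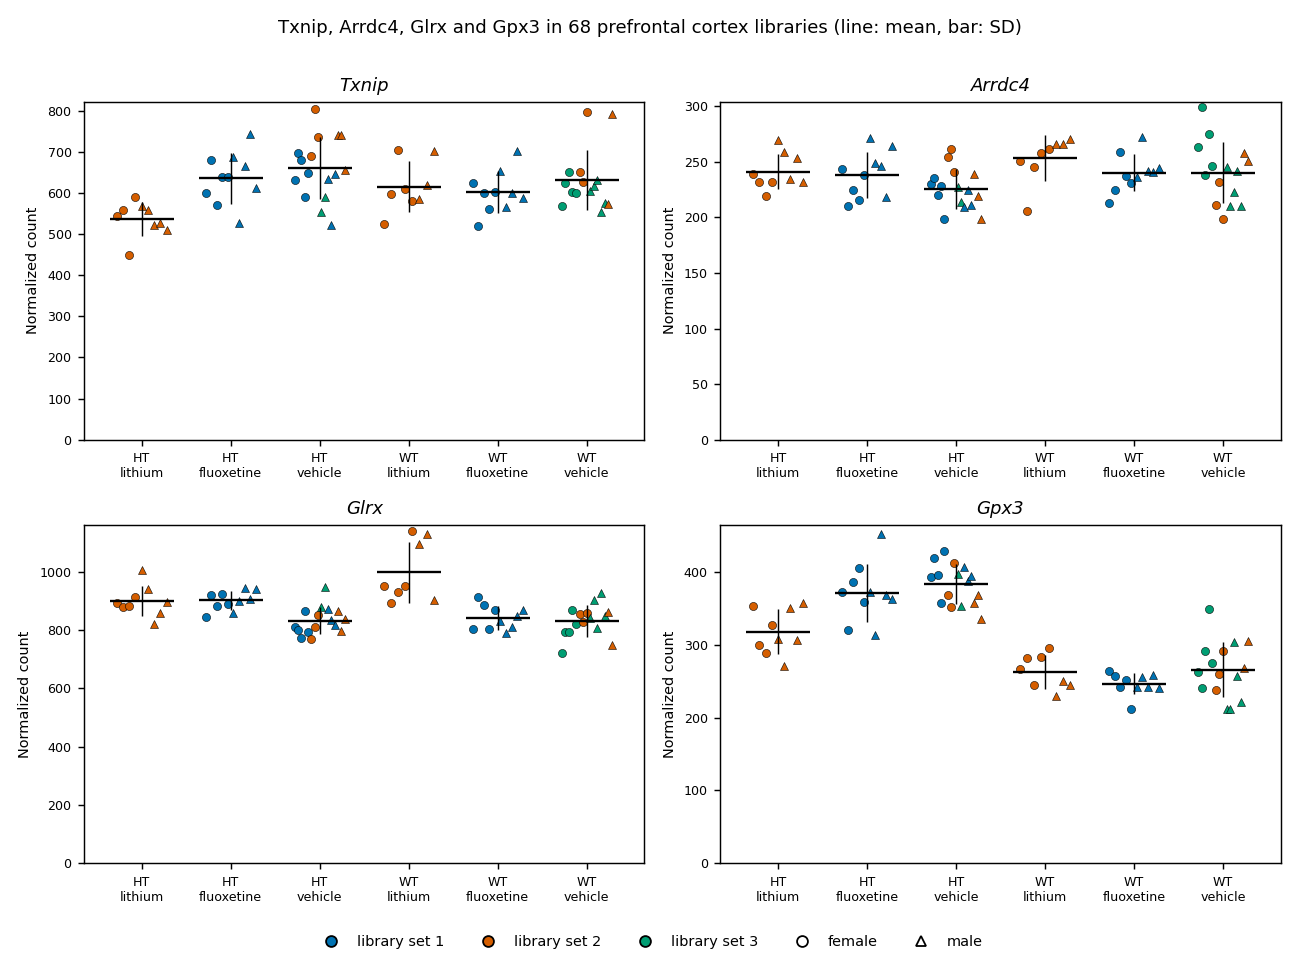
Normalized counts of Txnip, Arrdc4, Glrx and Gpx3 (y axis) in each of 68 libraries by genotype and drug (x axis), coloured by library set, circles for females and triangles for males, with the mean as a line and the SD as a bar. Txnip was lowest in HT lithium (mean 536), Glrx highest in WT lithium (mean 998), and Gpx3 higher in all HT conditions (means 318 to 383) than in the WT conditions (means 247 to 266).

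Glrx (chromosome 13, 75839868 to 75850154, plus strand), the cytosolic glutaredoxin that removes glutathione from protein thiols, was higher under lithium in both genotypes and most in WT. WT lithium libraries had 891 to 1138 (median 950.2) and WT vehicle libraries 721 to 926 (median 841). The means were 998 ± 104 and 831 ± 53.8 (SD), and the log2 difference was 0.27 (SE 0.04). Within set 2 all 8 lithium libraries lay above the 5 vehicle libraries, which had 749, 825, 853, 859 and 862, and the difference was 0.28 (SE 0.05). In WT it was 0.25 (SE 0.05) in females and 0.29 (SE 0.06) in males. Of the 8 lithium values, 3 lay at 1095 or above and 5 between 891 and 950.4.

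In HT the Glrx difference was smaller. HT lithium libraries had 819 to 1004 (median 892) and HT vehicle libraries 768 to 945 (median 824), a log2 difference of 0.11 (SE 0.04) pooled and 0.13 (SE 0.05) within set 2. There 7 of 9 lithium libraries lay above all 6 vehicle libraries. The effect in HT minus that in WT was -0.16 (SE 0.06), and -0.15 (SE 0.07) within set 2. No p is given because lithium chose this gene. The genes most like Glrx between libraries of 1 group and set were Arl6ip1 (r = 0.72), a membrane-shaping protein of the endoplasmic reticulum, Psmb7 (0.67), a proteasome subunit, Atp6v1d (0.66), a subunit of the vesicular proton pump, Vdac2 (0.62), a mitochondrial outer membrane channel, and Prps1 (0.62), which makes phosphoribosyl pyrophosphate.

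Gpx3 (chromosome 11, 54902453 to 54910377, plus strand), a selenium-dependent peroxidase secreted into extracellular fluid, was higher in HT than in WT under each of the 3 treatments. Under fluoxetine the 10 HT libraries had 314 to 452 (median 371) and the 10 WT libraries 212 to 263 (median 247), with no overlap and a log2 difference, HT minus WT, of 0.58 (SE 0.07). Under vehicle HT libraries had 336 to 429 (median 391) and WT libraries 212 to 349 (median 263). That difference was 0.54 (SE 0.05), and 15 of 16 HT libraries lay above all WT libraries. Within set 2, the 6 HT vehicle libraries had 336, 353, 357, 369, 369 and 412 and the 5 WT vehicle libraries 238, 259.7, 268, 292 and 306. They did not overlap, and the difference was 0.41 (SE 0.09). Among males of set 3, with 2 HT libraries, it was 0.64 (SE 0.12).

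Under lithium the genotype difference of Gpx3 was smaller. HT lithium libraries had 271 to 358 (median 308) and WT lithium libraries 229.7 to 296 (median 259), a difference of 0.30 (SE 0.07), with 7 of 9 HT libraries above all WT libraries. In HT, lithium minus vehicle was -0.27 (SE 0.06) pooled and -0.21 (SE 0.07) within set 2, where 6 of 9 lithium libraries lay below all vehicle libraries. In WT it was -0.03 (SE 0.07) pooled and -0.09 (SE 0.08) within set 2. The lithium difference in HT minus that in WT was -0.24 (SE 0.09) pooled and -0.11 (SE 0.11) within set 2. No p is given, since Gpx3 was chosen on its genotype difference. By the order of means, Gpx3 was highest in HT vehicle (383) and HT fluoxetine (372), then HT lithium (318), then WT vehicle (266), WT lithium (262) and WT fluoxetine (247). The 3 HT means lay above the 3 WT means, and only the steps on either side of HT lithium exceeded the larger SD of the neighbours. The genes that followed Gpx3 most closely within groups and sets were Sf3a2 (r = 0.57), a splicing factor subunit, the transcription factor Foxp4 (0.56), the folate transporter Slc46a1 (0.51), the mitochondrial ferredoxin reductase Fdxr (0.51) and Ppdpf (0.51).

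Gpx1 (chromosome 9, 108338903 to 108340343, plus strand) showed a lithium difference in WT and a genotype difference under vehicle that were present pooled and near 0 within set 2. Lithium minus vehicle in WT was 0.26 (SE 0.05), with 1835 to 2209 (median 1933) in lithium and 1309 to 1941 (median 1610.2) in vehicle libraries. Within set 2 it was 0.06 (SE 0.04), and the 5 vehicle libraries there had 1810.0, 1819.7, 1836, 1925 and 1941. The genotype difference under vehicle was 0.16 (SE 0.04) pooled and 0.01 (SE 0.05) within set 2. In HT, lithium minus vehicle was -0.01 (SE 0.05) pooled and -0.05 (SE 0.04) within set 2. Between genotypes under lithium, where all libraries are of set 2, HT minus WT was -0.11. Its SE was 0.05 in the fit of all groups and 0.04 in the fit within the set.

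Txn1 (chromosome 4, 57943373 to 57956411, minus strand) had 1396 to 1970.5 (median 1548) in WT lithium libraries and 1092 to 1609.8 (median 1355) in WT vehicle libraries, a log2 difference of 0.23 (SE 0.06). Within set 2 the difference was 0.16 (SE 0.07). A pair of WT lithium libraries, female 5 and male 2, stood at 1970.5 and 1961 while the other 6 lay between 1396 and 1555. In HT, lithium libraries had 1283 to 1551 (median 1453) and vehicle libraries 1240.1 to 1679 (median 1491), and the difference was -0.05 (SE 0.05) pooled and -0.07 (SE 0.06) within set 2.

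Gpx4 (chromosome 10, 80047166 to 80056439, plus strand) had 5351 to 7218 (median 6052) in WT lithium and 4427 to 6295 (median 5483) in WT vehicle libraries, which overlapped. It was higher under lithium in WT by 0.19 (SE 0.05) pooled and 0.12 (SE 0.06) within set 2, with -0.04 (SE 0.05) pooled and -0.01 (SE 0.06) within set 2 in HT. Prdx6 (chromosome 1, 161240112 to 161251219, minus strand) had 3825 to 4687 (median 4277) in WT lithium and 3209 to 4549 (median 3926) in WT vehicle libraries, also overlapping. It was higher under lithium in WT by 0.14 (SE 0.05) pooled and 0.05 (SE 0.06) within set 2, with 0.03 (SE 0.05) pooled and -0.07 (SE 0.05) within set 2 in HT, where the sign turned. Txnrd1 (chromosome 10, 82833951 to 82897712, plus strand), the selenoprotein that recharges thioredoxin, had 1397 to 1675 in HT lithium and 1429 to 1873 in HT vehicle libraries, and 1507 to 1603 in WT lithium and 1395 to 1652 in WT vehicle libraries. Its log2 differences lay between 0.01 and 0.07 in the lithium and genotype comparisons, pooled or within set 2. Its values had the smallest spread within groups of the 9 genes, with a residual SD of 0.08 on the log2 scale, against 0.15 for Txnip.

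**Figure D2:**
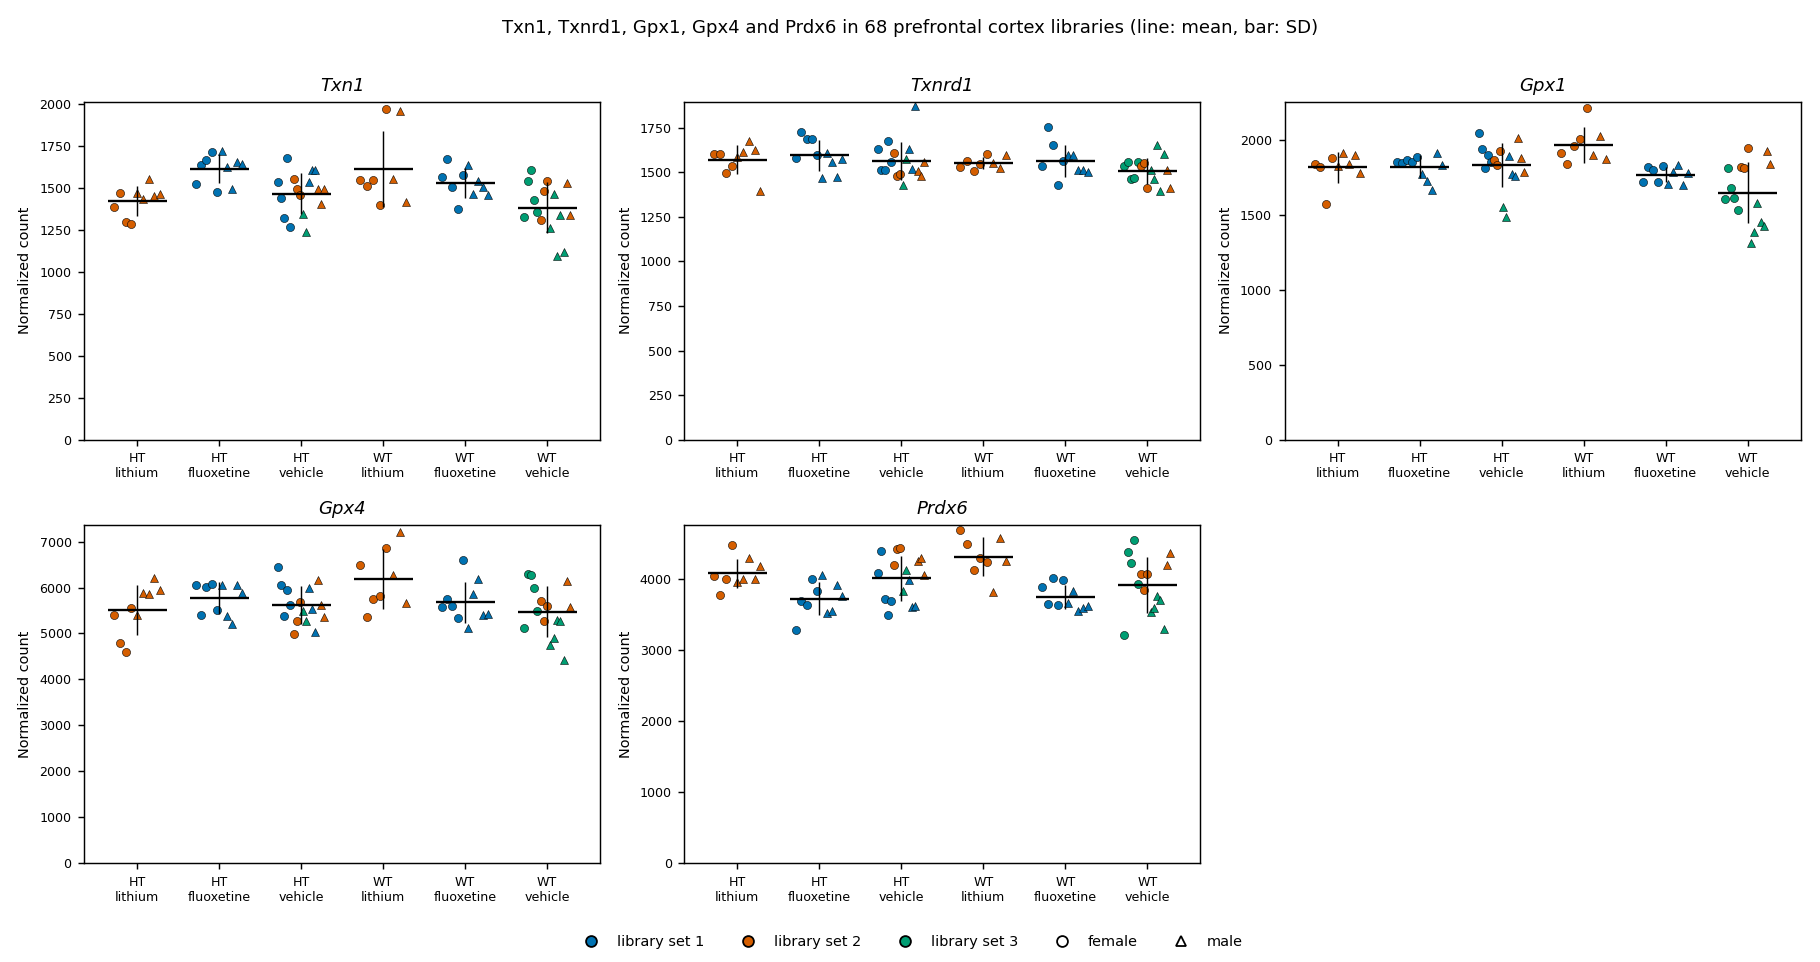
Normalized counts of Txn1, Txnrd1, Gpx1, Gpx4 and Prdx6 (y axis) in each of 68 libraries by genotype and drug (x axis), coloured by library set, circles for females and triangles for males, with the mean as a line and the SD as a bar. The set 3 libraries of WT vehicle hold the lowest Gpx1 values, down to 1309, and 2 WT lithium libraries stand apart for Txn1 at 1961 and 1970.5.

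The difference of the lithium effect between genotypes was tested for the 6 genes that lithium or genotype had not singled out. This difference is made of the lithium contrasts in HT and in WT, which are given above without a test. The choice used those contrasts for Txnip and Glrx, which come from the same libraries. The p-values are therefore not independent of the choice and are no support for an effect. For Gpx1 the effect in HT minus that in WT was -0.27 (SE 0.07, limma adjusted p = 0.028) pooled, and -0.12 (SE 0.06, adjusted p = 0.55) within set 2. For Txn1 it was -0.28 (SE 0.08, adjusted p = 0.04) pooled, and -0.23 (SE 0.09, adjusted p = 0.44) within set 2. Thus 2 of 6 passed pooled, both lower, against 2.8% of all genes tested, and 0 of 6 within set 2, where 0% of all genes passed. Gpx4 gave -0.23 (adjusted p = 0.058), Prdx6 -0.11 (adjusted p = 0.32), Txnrd1 -0.04 (adjusted p = 0.69) and Arrdc4 -0.01 (adjusted p = 0.97). With only the 4 groups compared in the fit, the adjusted p was 0.08 for Gpx1 and 0.09 for Txn1. Leaving out HT lithium female 3, WT lithium female 5 or WT lithium male 2 ended both calls, and for Txn1 the call was lost in 15 of 48 such fits, with differences from -0.33 to -0.21.

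**Figure D3:**
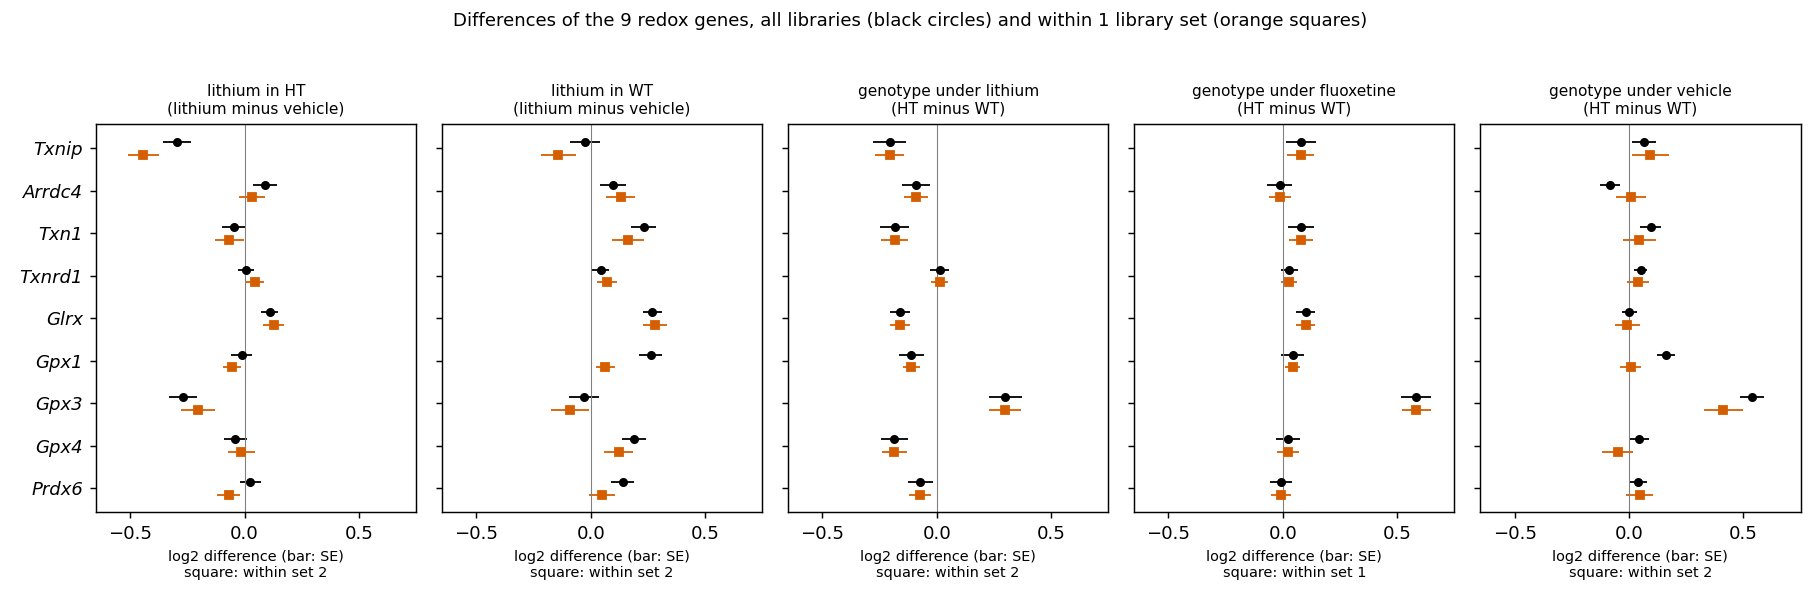
Log2 differences of the 9 genes (x axis; bars, SE) in 5 comparisons, lithium minus vehicle in HT and in WT and HT minus WT under each treatment, with all libraries as black circles and 1 library set as orange squares. Txnip in HT (-0.29 and -0.44), Glrx in WT (0.27 and 0.28) and Gpx3 between genotypes under vehicle (0.54 and 0.41) keep their side in both, and Gpx1 under lithium in WT (0.26 and 0.06) does not keep its size.

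None of the 9 genes passed under fluoxetine in limma. Txnip, Glrx and Gpx3 were chosen on contrasts that share these vehicle libraries, so their fluoxetine tests are not independent of the choice. In HT 0 of 9 passed, against 1.22% of all genes (0.407% higher and 0.809% lower), and in WT 0 of 9 passed, against 5.43% (3.14% higher and 2.29% lower). The nearest in HT was Glrx, with 845 to 945 (median 903) in fluoxetine libraries and 768 to 945 (median 824) in vehicle libraries, a log2 difference of 0.12 (SE 0.04, 95% interval 0.04 to 0.19, limma adjusted p = 0.1). Within set 1 it was 0.13 (SE 0.04, adjusted p = 0.2), and 8 of 10 fluoxetine libraries lay above all 8 vehicle libraries. The nearest in WT was Txn1, with 1375 to 1674 (median 1522) under fluoxetine and 1092 to 1609.8 (median 1355) under vehicle, a difference of 0.16 (SE 0.05, 95% interval 0.06 to 0.26, adjusted p = 0.054). It passed in DESeq2 (0.16, adjusted p = 0.037), which called 1292 of all genes, against 974 in limma. With the replicate number as a block it passed too (0.18, adjusted p = 0.016), where 22.3% of all genes did. The replicate numbers pair no samples. No set holds both WT fluoxetine and WT vehicle libraries, so drug and set cannot be told apart there. Txnip differed by -0.05 (95% interval -0.17 to 0.07) in HT over all libraries and by 0.02 (SE 0.06) within set 1, where the sign turned, and by -0.06 (-0.18 to 0.05) in WT.

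The fluoxetine effect in HT minus that in WT ranged from -0.12 for Gpx1 to 0.10 for Glrx. None of the 9 passed in limma (percent called 0 over all genes, where 2187 had an unadjusted p under 0.05), and edgeR called 1 gene and DESeq2 22 of all tested. Between the sexes under vehicle 0 of 9 passed, against 0.167% of all genes (0.106% higher in females and 0.0614% lower), and 0 of 9 within set 2, against 0.067%. The largest was Gpx1, with a female minus male difference of 0.13 (SE 0.04, adjusted p = 0.1) pooled and -0.02 (SE 0.05) within set 2. The lithium effect in females minus that in males passed for 0 of 9 genes and for 0% of all genes in limma, where 1554 genes had an unadjusted p under 0.05. EdgeR called 0 genes and DESeq2 2. Gpx4 gave the largest of these, -0.23 (SE 0.07, adjusted p = 0.48), and -0.05 (SE 0.09) within set 2.

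The wider redox system was followed in 10 lists of other genes, 122 in all, of which 113 were measured and tested. Under lithium in HT, 2 of 113 passed, both higher, against 1.52% of all genes (1.03% higher and 0.491% lower). They were Ggt7 (0.18, SE 0.05, adjusted p = 0.042), of the gamma-glutamyltransferase family, and Slc2a3 (0.18, SE 0.04, adjusted p = 0.013), the neuronal glucose transporter. Within set 2 neither passed and 0 of 113 did, against 0.162% of all genes. The median log2 difference of the 113 was 0.01 pooled and -0.02 within set 2, against 0.00 pooled over all genes.

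Under lithium in WT, 44 of 113 were higher and 5 lower, against 18.6% higher and 17.5% lower of all genes (36.1% in either direction). Within set 2, 4 of 113 were higher and 0 lower, against 0.664% of all genes. The 4 were Srxn1 (0.21, SE 0.05, adjusted p = 0.027), the sulfiredoxin that repairs oxidized peroxiredoxins, Hmox1 (0.43, SE 0.10, adjusted p = 0.028), heme oxygenase, Ftl1 (0.28, SE 0.07, adjusted p = 0.026), a ferritin subunit, and Sesn2 (0.31, SE 0.07, adjusted p = 0.02), a stress-induced inhibitor of mTORC1. Srxn1, Hmox1 and Ftl1 are known targets of Nrf2, the factor that answers electrophiles and oxidants. Of the list of Nrf2 regulators and targets, 2 of 13, Hmox1 and Ftl1, passed within set 2 in WT, with a list median of 0.07. Others of that list did not pass. Among them Osgin1 was at 0.46 (SE 0.30), Abcc4 at 0.24 (SE 0.11) and Nqo1 at 0.13 (SE 0.15). Sqstm1 was at -0.03 (SE 0.05) and Abcc1 at -0.09 (SE 0.05). Of the glutathione synthesis list, the known Nrf2 targets Gclc (-0.02, SE 0.04), Gclm (0.04, SE 0.05) and Slc7a11 (-0.08, SE 0.09) did not pass either. The activity of Nrf2 was not tested. In HT within set 2 Srxn1, Hmox1, Ftl1 and Sesn2 had differences of 0.02, -0.01, -0.02 and 0.15, none past the threshold. The peroxiredoxin and sulfiredoxin list had 6 of 9 higher in WT pooled (median 0.21), and 2 of 9, Srxn1 and Sesn2, within set 2 (median 0.09). Pooled, the medians of the 113 and of all genes were 0.10 and -0.02, and the list of glutathione synthesis and turnover had 7 higher and 1 lower of 13, among them Chac1 (0.49, SE 0.08, adjusted p = 2.2e-05), which degrades glutathione, and Gss (0.40, SE 0.08, adjusted p = 1e-04), glutathione synthetase. Chac1 was 0.20 (SE 0.09) and Gss 0.03 (SE 0.07) within set 2.

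**Figure D4:**
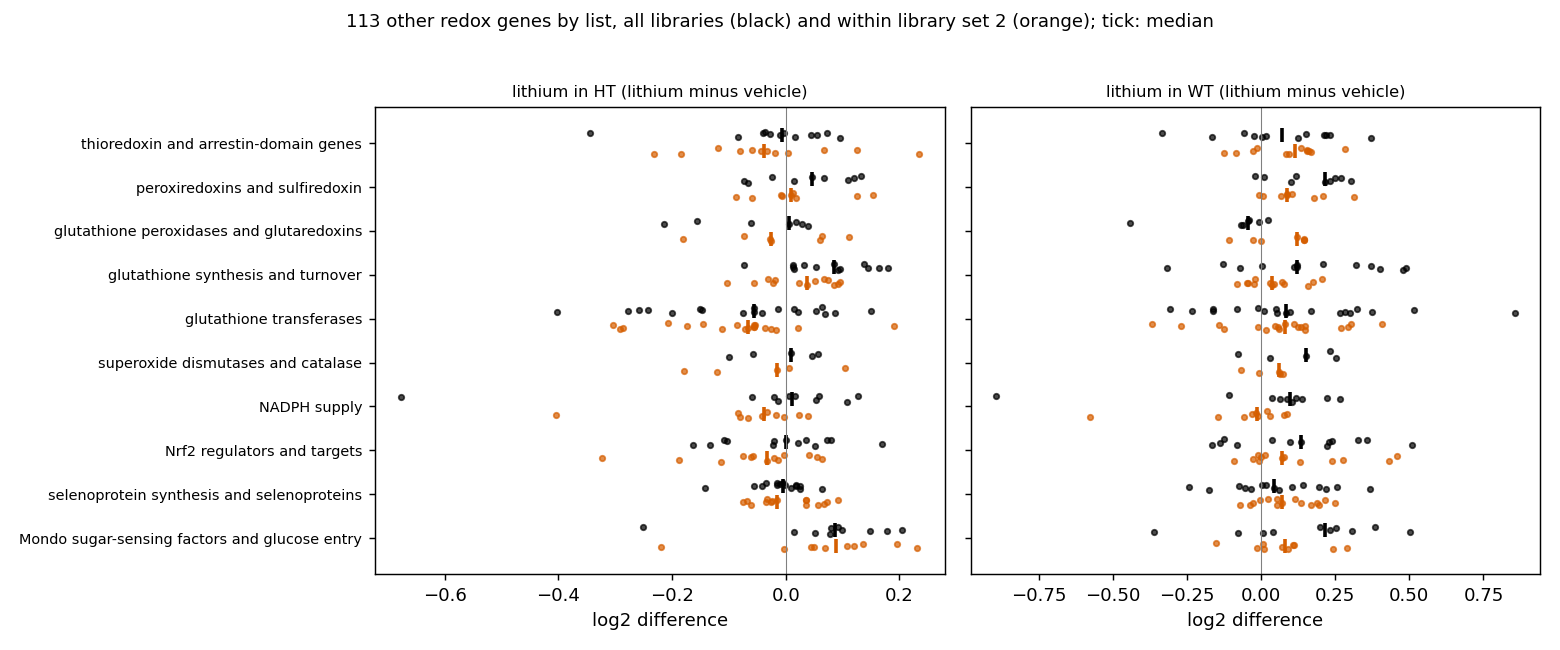
Log2 differences, lithium minus vehicle (x axis), of 113 other redox genes in 10 lists (rows), in HT on the left and WT on the right, with all libraries in black, library set 2 in orange and a tick at each median. In WT the medians of the peroxiredoxin and glucose-entry lists lay at 0.21 and 0.22 over all libraries and at 0.09 and 0.08 within set 2.

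The lithium effect differed between genotypes for 9 of 113 genes pooled, all lower in HT, against 1.65% lower and 1.15% higher of all genes. Within set 2 it did for 0 of 113, where 0% of all genes passed. The 9 included Srxn1 (-0.24, SE 0.06, adjusted p = 0.028), Hmox1 (-0.43, SE 0.11, adjusted p = 0.034), Ftl1 (-0.31, SE 0.08, adjusted p = 0.035), the mitochondrial thioredoxin Txn2 (-0.22, SE 0.05, adjusted p = 0.026) and superoxide dismutase Sod1 (-0.33, SE 0.09, adjusted p = 0.034). The count was 0 of 113 without HT lithium female 3, WT lithium female 5 or WT lithium male 2, and 21 without WT vehicle male 6. Counts over all genes are not given for these fits, so this range is not shown to be particular to redox genes. Within set 2 Hmox1 was at -0.45 (SE 0.14, adjusted p = 0.37) and Ftl1 at -0.30 (SE 0.09, adjusted p = 0.37).

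Between genotypes under lithium, where all libraries are of set 2, 1 gene was higher and 6 lower of 113 in the fit of all groups, against 1.48% higher and 1.03% lower of all genes (2.51% in all). The fit within the set, which takes the spread from libraries of the same set, called 1 higher and 13 lower, against 4.49%. Lower in HT in both were Srxn1 (-0.22, SE 0.05, adjusted p = 0.003), Selenop (-0.23, SE 0.05, adjusted p = 0.0018), which carries selenium to brain, the glucose transporter Slc2a1 (-0.44, SE 0.12, adjusted p = 0.029), Hmox1 (-0.31, SE 0.09, adjusted p = 0.044), Mgst3 (-0.21, SE 0.05, adjusted p = 0.013), a membrane-bound glutathione transferase, and Txnl4a (-0.14, SE 0.04, adjusted p = 0.034), a thioredoxin-fold protein of the spliceosome. Among the 9 genes of interest the same comparison gave -0.21 (SE 0.07) for Txnip, -0.19 (SE 0.06) for Gpx4 and -0.18 (SE 0.06) for Txn1. Glrx gave -0.16 (SE 0.05), Gpx1 -0.11 (SE 0.05), Arrdc4 -0.09 (SE 0.06) and Prdx6 -0.07 (SE 0.05), while Txnrd1 (0.01) and Gpx3 (0.30) lay above 0. The median over all genes was 0.002. The choice of the 9 used lithium and genotype differences in these libraries, so these values are descriptions.

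The gene higher in HT under lithium was Gstm6, a glutathione transferase. It was higher by 0.60 (SE 0.13, adjusted p = 0.0028), and by 0.68 (SE 0.12, adjusted p = 6.3e-05) under fluoxetine, where 3 of 113 were higher and 0 lower, against 1.33% higher and 0.653% lower of all genes (1.98% in all). Under vehicle Gstm6 was higher by 0.71 (SE 0.09, adjusted p = 7.9e-08), one of 17 higher and 5 lower genes of 113, against 7.74% higher and 7.21% lower of all genes (15% in all). Within set 2 under vehicle it was 0.50 (SE 0.14, adjusted p = 0.13), and 0 of 113 passed, against 0.536%. Its neighbour in the family Gstm7 was higher by 0.37 (SE 0.08, adjusted p = 0.0016) under fluoxetine and 0.31 (SE 0.06, adjusted p = 5e-04) under vehicle. Transferases of the Mu class are alike in sequence and share reads, so their single levels are uncertain. Within set 1 under fluoxetine 3 of 113 were higher and 1 lower, against 2.85%.

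Fluoxetine called 0 of 113 genes in HT, pooled and within set 1 (0.167% of all genes), and 3 higher and 4 lower in WT, against 3.14% higher and 2.29% lower of all genes (5.43% in all). Those in WT included Selenof (-0.27, SE 0.07, adjusted p = 0.022), Selenoh (0.31, SE 0.08, adjusted p = 0.026) and Sod1 (0.21, SE 0.06, adjusted p = 0.027), and for these too drug and set cannot be told apart. In HT, 2450 genes had an unadjusted p under 0.05, and DESeq2 called 2 of the 113.

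Between libraries of the same group and set, the 9 genes did not vary as 1 block. Gpx1 and Gpx4 had the highest correlation (r = 0.72 over 68 libraries, 0.69 without the 2 libraries farthest from the median), followed by Gpx4 and Prdx6 (0.50) and Txn1 and Glrx (0.49, and 0.36 without 2 libraries). Between Txnrd1 and each other gene r lay between -0.16 and 0.14. Prdx6 varied most with the mean log2 level of markers of endothelial cells (r = 0.73), microglia (0.72), astrocytes (0.55) and mural cells (0.54). Gpx4 varied most with those of microglia (0.65) and endothelial cells (0.54). The points share libraries and their scaling, so these are descriptions.

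**Figure D5:**
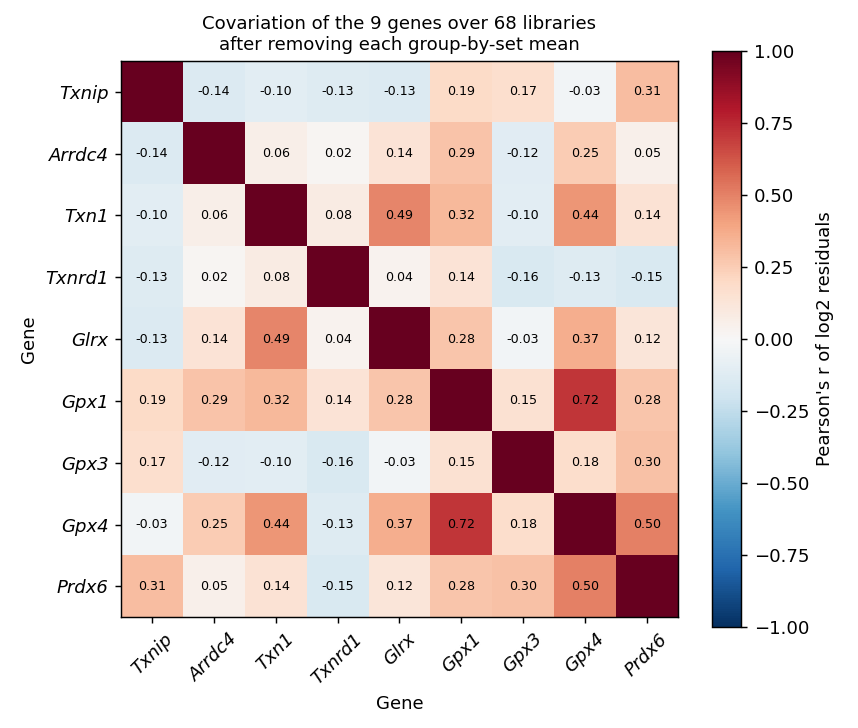
Pearson's r between the 9 genes (both axes) over 68 libraries after the mean of each group in each library set was removed, on a scale from blue (-1) to red (1). Gpx1 with Gpx4 (0.72) is the highest pair, and Txnip with Arrdc4 (-0.14) is below 0.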

How the data were processed

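The submitters deposited 1 table of normalized counts per gene for 68 libraries, a signal made by dividing each library's estimated counts by its size factor, as the deposited values show. Per the submitters' processing notes, Salmon 0.11.2, R 3.6.0 and DESeq2 1.19.11 were used with GRCm38. What 1 read is worth was read from the low values, and 100% of values came out whole (within 0.01). Libraries held 22.4 to 37.5 M reads.

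Log2(value + 1) was fitted with limma 3.58.1 (R 4.3.3; trend and robust) on 17922 genes with a mean of at least 5, in 1 model of 12 groups, sexes weighted equally. Fold changes are on that scale, where changes of low genes come out too small. P-values are two-sided, Benjamini-Hochberg adjusted over all genes, with a threshold of 0.05. EdgeR 4.0.16 and DESeq2 1.42.0 on the recovered reads, other pseudocounts and filters, each sex, each library set, a replicate block and leaving out each library were alternatives. Library sets came from average linkage on 361 pseudogenes. Under lithium, edgeR on the recovered reads called 239 genes in HT and 6760 in WT, against 273 and 6478 in limma. The limma fit was checked on simulated counts for lithium in HT only. These had the same relative spread for all genes and no library sets, so the check does not bear on the mixing of drug, genotype and set.

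The 9 genes, the gene lists and the tests were chosen with earlier results of these data known. Of the other redox genes, those named come from the up to 3 with the smallest p of a list among those passing, and all those that passed within set 2 under lithium in WT. Genes most like a member were ranked by Pearson's r of residuals over 68 libraries, among genes with a mean of at least 50. 1 of these genes is not reported here. Promoters are RefSeq windows (GRCm38.p6), and 18077 genes matched GENCODE vM21. Same-numbered libraries were not paired (median r -0.005 over 313 pairs).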

Additional observations from a re-analysis of the deposited data

Results flagged for a closer look

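Each of the 9 genes was tested in each group of 4 to 8 libraries for a library far from the rest. Of 99 such combinations of gene and group, 7 (7.07%) held one, where chance gives about 1 in 20. The combinations share libraries and are not independent. In WT lithium, female 5 had 1138 for Glrx (next 950.4) and 1971 for Txn1 (next 1548), and female 2 had 206 for Arrdc4 (next 246). In WT vehicle, female 8 had 797 for Txnip (next 652) and male 7 had 792 (next 631). Txnrd1 stood at 1873 in HT vehicle male 5 (next 1629), and Arrdc4 at 272 in WT fluoxetine male 2 (next 245).

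The lithium effect differed between HT and WT, by the test of that difference in limma, for Txn1 (-0.28, adjusted p = 0.04) and Gpx1 (-0.27, adjusted p = 0.028). It did so for 9 other redox genes, namely Gstt1 (-0.43, adjusted p = 0.035), Hmox1 (-0.43, adjusted p = 0.034), Chac1 (-0.40, adjusted p = 0.045), Sod1 (-0.33, adjusted p = 0.034), Ftl1 (-0.31, adjusted p = 0.035), Msrb1 (-0.27, adjusted p = 0.041), Srxn1 (-0.24, adjusted p = 0.028), Mgst3 (-0.23, adjusted p = 0.043) and Txn2 (-0.22, adjusted p = 0.026). Pooled, 2.8% of all genes passed this test. None of these 11 passed within set 2, where 0% of all genes did. For Txn1 and Gpx1 the test is not independent of how the 9 genes were chosen.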

How the results depend on the processing

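No alternative reversed a difference among the 9 genes that passed its test, while Prdx6 under lithium in HT (0.03) and Txnip under fluoxetine in HT (-0.05) were -0.07 and 0.02 within 1 library set. Differences are log2 and counts are of the 113 other redox genes that passed. Within 1 library set, Txnip under lithium in HT was -0.44, and the lithium effect in HT minus WT was -0.23 for Txn1 and -0.12 for Gpx1. With only the groups compared in the fit these were -0.28 (adjusted p = 0.09) and -0.27 (adjusted p = 0.08). Txn1 under fluoxetine in WT passed in DESeq2 (0.16, adjusted p = 0.037) and under the replicate block (0.18, adjusted p = 0.016). For lithium in HT (2 passed), edgeR gave 1, DESeq2 5, only the groups compared 4, the replicate block 25, and set 2, females or males alone 0. For lithium in WT (49), set 2 gave 4 and females 9. Of all genes, set 2 called 119 and females 626, against 6478 pooled. For genotype under vehicle (22), only the groups compared gave 9, set 2 gave 0, females 2 and males 8. Of all genes these called 858, 96, 314 and 755 in that order, against 2680 pooled. For genotype under lithium (7), set 2 gave 14 and each sex 1. Of all genes, set 2 called 805, females 101 and males 50, against 450 pooled. For fluoxetine in WT (7), DESeq2 gave 11, only the groups compared 0, the replicate block 29, females 0 and males 3. Of all genes these called 1292, 80, 4003, 6 and 668 in that order, against 974 pooled. For fluoxetine in HT and for sex under vehicle (0 each), DESeq2 gave 2, against 374 and 148 of all genes. For the lithium effect in HT minus WT (9), only the groups compared and set 2 gave 0 and the replicate block 17. Of all genes, only the groups compared called 1 and set 2 called 0, against 502 pooled. The replicate block called 20.9% of all genes for lithium in HT, 22.3% for fluoxetine in WT and 6.42% for the lithium effect in HT minus WT. Of all 17922 genes, edgeR called 239, DESeq2 449 and only the groups compared 495 for lithium in HT, against 273 pooled in limma. Set 2 called 29 there, females 0 and males 21. The replicate numbers pair no samples (10 of 68 libraries were most like a library of their own number). All vehicle libraries of set 2 carry replicate numbers 6 to 8, which no lithium or fluoxetine group has. By design the block therefore sets lithium mainly against vehicle libraries of sets 1 and 3. The cause of the shifts under the other alternatives was not tested.

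Leaving out each library in turn, counts ranged over 0 to 3 for lithium in HT, 44 to 56 for lithium in WT, 3 to 9 for genotype under lithium, 14 to 35 under vehicle and 2 to 4 under fluoxetine, 0 to 2 for fluoxetine in HT, 2 to 14 in WT, 0 to 5 for sex and 0 to 21 for the lithium effect in HT minus WT. The last was 0 without HT lithium female 3, WT lithium female 5 or WT lithium male 2, 3 to 5 without HT lithium male 1, HT vehicle male 3, WT vehicle female 5 or WT vehicle males 1, 2 or 5, and 14 to 21 without HT vehicle males 1 or 2 or WT vehicle males 6 or 7. Genotype under vehicle gave 14 without WT vehicle male 5 and 35 without male 6, and genotype under lithium 4 without HT lithium female 3 and 3 without WT lithium male 2. Counts over all genes are not given for these fits, so the ranges are not shown to be particular to redox genes. The lithium effect in HT minus WT ranged from -0.33 to -0.21 for Txn1, with the call lost in 15 of 48 cases (HT lithium female 3 and males 1 and 2, HT vehicle females 1 and 6 and males 3, 6 and 8, WT lithium females 1 and 5 and male 2, WT vehicle females 1 and 5 and males 1 and 5), and from -0.30 to -0.24 for Gpx1, with the call lost in 3 of 48 (HT lithium female 3, WT lithium female 5 and WT lithium male 2). Txn1 under fluoxetine in WT ranged from 0.14 to 0.18.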
